A study of Mus musculus with 12 samples.

Results

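Short RNAs lying on the sense strand of introns were examined in DN3 thymocytes of control mice. DN3 cells are immature T cell precursors that rearrange the T cell receptor beta gene. The cells were sorted by flow cytometry from thymus of Lck-cre mice on a C57BL/6 background aged 6 to 7 weeks, so the control group also carries the Cre recombinase, driven by the promoter of the T cell kinase gene Lck. The study made 12 libraries, 1 each from 4 cell types in control, Drosha-deficient and Dicer-deficient animals. Each library holds RNA of 19 to 30 nt cut from a gel and joined to adaptors by a reaction that needs a phosphate at the 5′ end and a hydroxyl at the 3′ end. Members are the entries of the DN3 control list of gene-linked sequences that the authors labelled intron and sense. The genes Gas5, Snhg1, Eif4a2, Nop56, Gnl3, Ncl and Eif4a1 and ribosomal protein genes with Rpl, Rps or Rplp symbols and a number, 1602 sequences in 72 genes, were left out. Rpsa, a ribosomal protein gene without a number in its symbol, stayed in. This gave 15970 members in 6437 genes, of 54267 entries in all.

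Every entry is a distinct sequence with 1 genome position and no read number. A count below is therefore a number of different sequences and not an abundance, and the sequencing depth behind it is unknown. The library has no replicate, so the values are descriptions without a test. Sequences that overlap share a source and are not repeat measurements. Positions are those of the authors' list, counted from 1, in a genome build that is not given in the sources used here.

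Introns are removed from the primary transcript and are normally degraded, but some carry smaller functional RNAs. Small nucleolar RNAs (snoRNAs) of the box C/D kind guide ribose methylation through short box C and box D motifs near their ends, and box H/ACA snoRNAs guide pseudouridylation. Small Cajal body RNAs (scaRNAs) do the same for spliceosomal RNAs. Most intronic microRNA (miRNA) hairpins are cut from the transcript by Drosha, though some are released by splicing without it, and Dicer then trims them to mature miRNAs. Splicing releases most intronic snoRNAs, which exonucleases then trim to their mature ends.

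The sequences below carry the main patterns. The first set holds the longest sequence, up to 30 bases, with the most common 5′ end (3′ end for Ubap2) of large clusters over annotated snoRNAs. Capitals mark TGATG, the core of box C, and CTGA, box D.
Eif4g1 (Snord66, chr16:20684357-20684386, +): accacaTGATGggattgaggacCTGAggaa
Ubap2 (Gm22888, chr4:41150099-41150128, -): ttatatgtgtggatggtaataatgCTGAgt
Bat1a (Gm25128, chr17:35384120-35384149, +): gccaaaTGATGtatgtttgacataggagca

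The next set has the same motifs but matches no annotated small RNA. Its genes are among those with most unmatched sequences in which TGATG precedes CTGA.
Abhd2 (chr7:86428414-86428440, +): cacccaaTGATGtaatgtCTGAgtgtg
Msh3 (chr13:93074124-93074148, -): tgtctgTGATGtatagCTGAgaatg
Ssbp3 (chr4:106709820-106709845, +): tgcctgTGATGaggtcaCTGAggcca
Aspscr1 (chr11:120537539-120537564, +): cctcgaTGATGatggcaCTGAgggag
Cdkal1 (chr13:29761177-29761204, -): gacgaTGATGactgcttttCTGAgtttg
Taok3 (chr5:117716909-117716931, +): gagccaTGATGcacacCTGAgat
Itga6 (chr2:71671904-71671929, +): ttgacaTGATGagccaCTGAgaaggg

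The third set lies beside or on miRNA hairpins. In the 4 flanking sequences, capitals mark bases that belong to the RefSeq hairpin. In the others they mark bases 2 to 8, the seed of a mature miRNA. Lines starting with mmu are mature miRNAs from RefSeq (GRCm38.p6).
Arpp21, before miR-128-2 (chr9:112021206-112021233, -): gccccggcagccactgtgCAGTGGGAAG
mmu-miR-128-2-5p: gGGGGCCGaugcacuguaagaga
Smc4, before miR-16-2 (chr3:68813818-68813839, +): atctgaCATGCTTGTTCCACTC
mmu-miR-16-5p: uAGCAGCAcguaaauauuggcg
mmu-miR-16-2-3p: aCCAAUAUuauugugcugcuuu
Smc4, after miR-16-2 (chr3:68813905-68813928, +): GTGTGACAGGGATAtagcaactca
Mcm7, before miR-93 (chr5:138606825-138606846, -): tggaccttAGTCATGGGGGCTC
mmu-miR-93-5p: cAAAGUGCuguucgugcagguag
Alkbh1 (chr12:88778673-88778697, -): tTGGAGTTcatgcaagttctaacca
mmu-miR-3068-5p: uUGGAGUUcaugcaaguucuaacc
Notch1 (chr2:26325613-26325634, -): tGCACAGGacagagcacagtca
mmu-miR-6996-5p: uGCACAGGacagagcacaguc

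The 15970 sequences were thinly spread over genes. Of the 6437 genes, 3163 (49.1%) had 1 sequence, 2576 had 2 to 4, 528 had 5 to 9 and 170 had 10 or more, and the median gene had 2. The 170 genes held 2879 sequences. The 15 genes with most sequences held 661, or 4.14%. When overlapping sequences on 1 strand (at least 1 shared base) were joined, 13355 local clusters resulted. Of these, 12177 were single sequences, and 1178 clusters of 2 or more held 3793 sequences, or 23.8% of members (95% Wilson interval 23.1% to 24.4%, counting error of sequences only). Only 159 clusters had 5 or more sequences and 50 had 10 or more.

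Exact matching to GENCODE vM21 transcripts and RefSeq hairpins placed 1152 sequences (7.21%, interval 6.82% to 7.63%) inside an annotated small RNA. They comprised 748 in snoRNAs, 255 in miRNA hairpins, 63 in scaRNAs and 86 in hairpins that are also listed as part of a snoRNA or scaRNA. These 1152 sequences came from 179 genes, and 91.5% of them lay in clusters of 2 or more. Of the 14818 sequences with no match, 18.5% lay in such clusters. Antisense introns of the same library held 7920 sequences, of which 30 (0.379%) matched an annotated small RNA. Among the 50 clusters of 10 or more, 33 held a match, against 98 of the 12177 single sequences. Of all members, 2521 (15.8%) occurred in an annotated long transcript on the sense strand, 1222 of them in models of the retained intron type. These 2521 include 282 that also matched a small RNA, and 12579 (78.8%) occurred in neither kind.

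Tex14, which encodes a protein of germ cell intercellular bridges, had the most sequences, 108 in 29 clusters. None of them lay inside an annotated small RNA. RefSeq places Rnu1a1, Rnu3b1, Rnu3b2, Rnu3b3, Rnu3b4, Gm22068 and Gm23137, small nuclear and U3 RNA genes, within Tex14. The largest Tex14 cluster had 25 sequences over 129 bases (chr11:87236553-87236681), with 20 different 5′ ends and 19 different 3′ ends. Clusters of 13, 16, 8 and 5 sequences followed along the gene. Of the 108 sequences, 9 crossed the 3′ end of an Rnu3b gene, with at least 10 bases inside it. One of these is shown, with capitals for the bases in the longer of the GENCODE models of Rnu3b1. The letters do not tell the Rnu3b copies apart.
Tex14 (chr11:87256932-87256961, +): GAGGGAACGCAGTCTGAGTGGACtcggttt

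Hspa9, a mitochondrial chaperone, had 36 sequences, 31 of them in 1 cluster over Gm26109. Ubap2 had 37, with 23 in 1 cluster, of which 22 lay within Gm22888. Among translation factors, Eif4g2 had 50 sequences, with 22 in a cluster over Gm23262 in which 13 shared 1 5′ end and 16 different 3′ ends occurred. Gnb2l1 (now Rack1), a ribosomal scaffold protein, had 35 in 5 clusters, of which 33 lay in Snord95, Snord96a or Gm25296. Eif4g1 had a cluster of 20 over Snord66, and the RNA helicase gene Bat1a (now Ddx39b) had 19 over Gm25128. The splicing factor gene Sf3b3 had 35, with 18 in Gm22193 and 14 in Snord111. Nop58, a core protein of box C/D particles, had 32 sequences and 28 matches. The noncoding host 1500012F01Rik (now Zfas1) had 40 sequences and 28 matches, and the autophagy gene Atg16l1 had 31 with 25 matches to Gm25395 and Scarna6.

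Alkbh1, a nucleic acid demethylase, had 36 sequences, 35 of them in Mir3068. GENCODE lists Mir3068 as a snoRNA of 136 bases, and RefSeq lists it as a miRNA. Sfmbt2, a Polycomb-group gene whose intron holds a long array of repeated miRNA genes, had 59 sequences in 20 clusters, and 45 matched hairpins. Its largest clusters had 14 sequences at Mir669o and 10 at Mir466n. Because those hairpins are near-identical copies, the assignment of a sequence to 1 copy is uncertain. The remaining genes of the first 15 were of another form. Fam169b had 34 sequences in 25 clusters over 83.2 kb, none in an annotated small RNA, and RefSeq lists no small RNA gene inside it. Notch1 had 31 sequences in 23 clusters, and the lymphoid transcription factor gene Elf1 had 30 in 11 clusters, a number that the histone gene Hist1h2bc shared. Counting each cluster once, 5 of these 15 genes stayed among the first 15, which then began with Tex14 (29 clusters), Fam169b (25), Notch1 (23), Ets1 (21) and Hnrnpf (20).

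**Figure D1:**
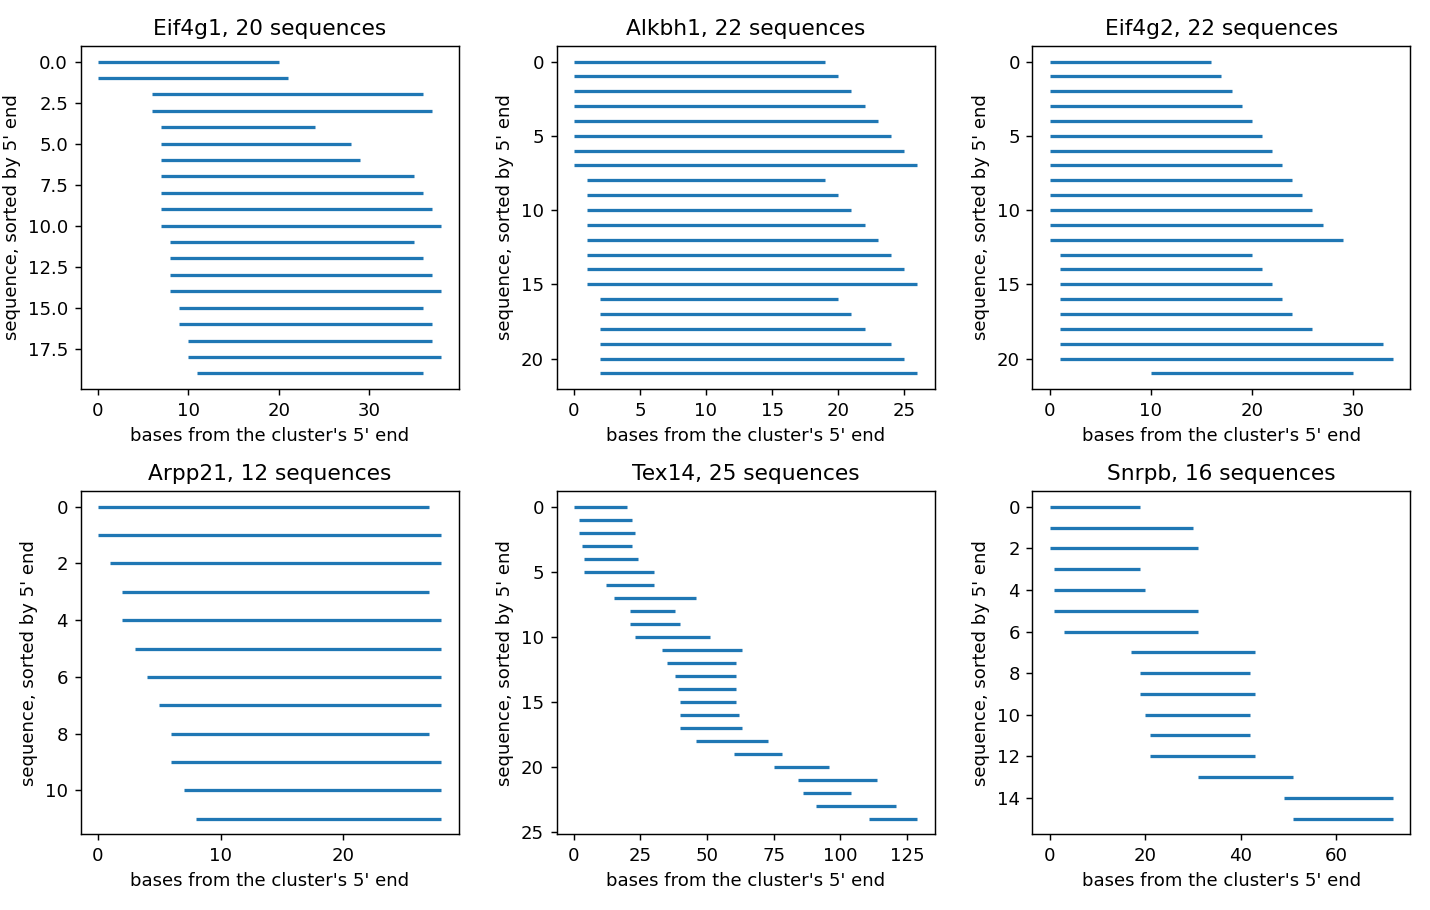
Extent of every distinct sequence in 6 local clusters, as bases from the 5′-most base of the cluster (x axis), with 1 line per sequence sorted by its 5′ end (y axis). Sequences at Alkbh1 and Eif4g2 share nearly the same 5′ ends, those at Arpp21 nearly the same 3′ ends, those at Tex14 have scattered starts over 129 bases, and those at Snrpb lie in steps over 72 bases.

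The 159 clusters of 5 or more differed in how uniform their ends were. Over the 9 clusters at miRNA hairpins, the median share of sequences with the most common 5′ end was 50.0%, against 21.4% for the most common 3′ end, and in 7 of the 9 the 5′ end was the more uniform. Over the 63 snoRNA clusters these medians were 50.0% and 33.3%, with the 5′ end more uniform in 39 and the 3′ end in 19. The 7 scaRNA clusters had 66.7% and 25.0%. The 73 clusters that matched no annotated small RNA had 40.0% and 30.8%, with the 5′ end more uniform in 36 and the 3′ end in 19.

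The 897 sequences that fell in 1 snoRNA or scaRNA came from 97 such RNAs in 75 host genes. Their 5′ end lay within 5 bases of the annotated RNA's 5′ end in 359 (40.0%), and their 3′ end lay within 5 bases of its 3′ end in 270 (30.1%). The other 268 (29.9%) were near neither end. In the 29 box C/D snoRNAs, recognised by TGATGA near the 5′ end and CTGA near the 3′ end, 139 of 293 sequences (47.4%) were at the 5′ end and 75 (25.6%) at the 3′ end. In the 32 box H/ACA snoRNAs, longer than 100 bases and recognised by ACANNN at the 3′ end, the counts were 95 of 208 (45.7%) and 75 (36.1%). Single snoRNAs could be one-sided. All 12 sequences of Snora62 in Rpsa and all 12 of Snord67 in Ckap5 were at the 5′ end, while 23 of 33 of Gm26109 in Hspa9 were at the 3′ end.

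Another 139 unmatched sequences in 41 genes crossed the end of a small RNA gene that RefSeq places in their own gene, 92 over the 5′ end and 47 over the 3′ end. Hspa8, a cytosolic chaperone gene hosting Snord14c, Snord14d and Snord14e, had 11 over a 5′ end and 7 over a 3′ end. Ipo7, a nuclear import receptor gene, had 10 over a 5′ end of Snora23 or Gm25636.

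Box C and box D letters also occurred together in many sequences that did not lie wholly inside an annotated small RNA. Sequences crossing the end of such an RNA count as unmatched here and were not taken out. TGATG followed by CTGA, searched on the RNA strand with no shared bases, was found in 542 sense intronic sequences (3.39%). In antisense introns it was found in 6 of 7920 (0.0758%), and in the other sequence categories of the list between 0.0% and 0.758% had it. Of the 542, 106 matched an annotated small RNA and 436 did not, so 2.94% of the unmatched members had it. The 436 came from 287 genes, 207 of which had 1 such sequence, and formed part of 296 clusters. In 219 cases the sequence stood alone in its cluster.

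The motifs stood mostly at similar distances from the ends of these 436 sequences. The shares below count each sequence, so overlapping sequences of the 296 clusters that share ends count more than once. TGATG was preceded by 5 or 6 bases in 378 (86.7%), and CTGA was followed by 2 to 5 bases in 407 (93.3%) and by exactly 2 in 277 (63.5%). The bases between the motifs varied more, with 4 (63 sequences), 6 (61) and 5 (57) the most common and a second group around 12 (35). Lengths ran from 16 to 32 nt with a median of 25 nt. In the 106 matched sequences the corresponding figures were 71 (67.0%) with 5 or 6 bases before TGATG and 84 (79.2%) with 2 to 5 bases after CTGA. Of the 6 antisense sequences, 4 had 5 or 6 bases before TGATG. The motif pair was chosen after the sequences of unmatched clusters were seen. These letters describe the sequences, and no particle or modification was measured.

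**Figure D2:**
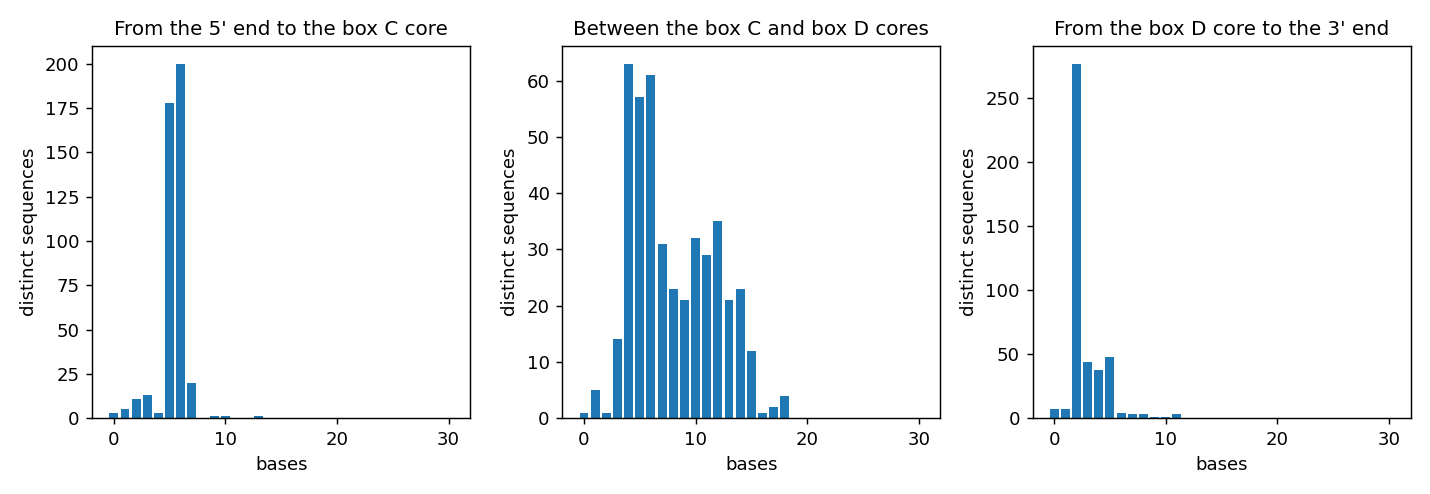
Positions of the box C core and the box D core in the 436 unmatched sense intronic sequences that hold both in this order. Bars count distinct sequences (y axis) by bases (x axis) from the 5′ end to box C, between the boxes, and from box D to the 3′ end. Bars are highest at 5 and 6 bases before box C and at 2 bases after box D.

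The genes with most of these unmatched pairs were Abhd2 (12 sequences), the mismatch repair gene Msh3 (9), Ssbp3 (9), Aspscr1 (8), Cdkal1 (7), the kinase gene Taok3 (6), the chromatin remodeller gene Chd3 (5) and the integrin gene Itga6 (5). Among the 42 listed T-lineage genes, with 250 members in all, Il2ra had 2 and Ets1, Runx1 and Tox 1 each. Over all unmatched members the share was 2.94%, so these counts do not set T-lineage genes apart. TGATG alone was in 169 of the 613 unmatched sequences that lay in clusters of 5 or more (27.6%), in 217 of 2126 in clusters of 2 to 4 (10.2%) and in 532 of 12079 single ones (4.40%). It was in 332 of 811 sequences matching a snoRNA or scaRNA (40.9%) and in 116 antisense sequences (1.46%). Of the 17 clusters of 10 or more without a match, 8 held it, at Snrpb, Cox7c, Chd3, Abhd2, Ell, Impa2, Msh3 and Ssbp3. Snrpb, a core spliceosomal protein gene in which RefSeq lists no small RNA, had 16 sequences over 72 bases (chr2:129998644-129998715, -), of which 14 held TGATG and 13 CTGA. RefSeq lists a guide RNA gene, Gm22442, in Chd3. Another of those 17 clusters, at Fam19a1, resembles bacterial ribosomal RNA by general knowledge. It was compared with no reference and stays in the counts.

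The Elf1 cluster of 15 sequences (chr14:79881529-79881560, +) had another mark, a run of T at the 3′ end, shown in capitals.
Elf1 (chr14:79881532-79881560, +): ctcccggtatgggaacagtgtcacTTTTT
In 7 of these 15 the last 4 bases were TTTT. RefSeq places a transfer RNA gene, n-TEttc4, inside Elf1, and no other small RNA gene. Nuclear transfer RNAs were not among the small RNA classes used for matching, so sequences of such a gene count as unmatched here. Whether the cluster belongs to n-TEttc4 was not tested. Over all members 175 (1.10%) ended in TTTT, and over antisense introns 97 (1.22%) did.

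Positions relative to the mature arms were taken from the RefSeq hairpin table, which held 280 of the 341 sequences inside annotated hairpins and none of those at Sfmbt2. Its hairpins, on the same chromosome and strand, were related to 357 members at 121 hairpins, 280 inside a hairpin, 61 across its 5′ end and 16 across its 3′ end. There were mainly 2 forms. At 92 hairpins, 245 sequences started within 2 bases of a mature arm, and 153 (62.4%) started exactly on it. At 18 other hairpins, 70 sequences lay beside the arms, 56 before the 5p arm and 14 after the 3p arm. The authors' separate miRNA list for this library held 1067 sequences, and no entry of the whole gene-linked list, members included, was among them. No hairpin of the first form contained a sequence of that list, while 17 of the 18 of the second form did. Because the lists share no sequence, this contrast cannot be told apart from the authors' division of sequences between them.

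Most of the counted sequences before a 5p arm ended at the edge of the mature miRNA. Of the 61 across a hairpin's 5′ end, 51 had their last base directly before the first base of the 5p arm, at 17 hairpins, and 54 were within 1 base of that point. A sequence could be found this way only with at least 10 bases inside the hairpin. The miR-128-2 hairpin has just 10 bases before its 5p arm. Sequences ending short of that arm could not be counted, so its share of the 51 was set by the rule. The median length of the 56 sequences before a 5p arm was 21 nt. After the 3p arm, 4 of 14 sequences started on the next base, 7 left 1 base out and 3 left 2 out.

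Arpp21, a thymocyte and brain gene hosting miR-128-2, showed the pattern at 1 site with 12 overlapping sequences. Of these, 9 ended directly before miR-128-2-5p, and their 5′ ends varied, so that lengths ran from 20 to 28 nt. Smc4, a condensin gene hosting miR-15b and miR-16-2, had sequences on both sides. All 4 before miR-16-5p ended directly before its first base, and all 6 after miR-16-2-3p started 1 base past its end. The normalised values of listed sequences contained in this hairpin summed to 134180 of 994020 in the miRNA list, but miR-16-5p can also come from another hairpin. Mcm7, a subunit of the replicative helicase hosting the miR-106b, miR-93 and miR-25 hairpins, had 5 sequences before miR-93, of which 4 ended on the edge, and 3 before miR-25, of which 1 did. Nfyc, a subunit of a CCAAT-binding factor, had 5 before miR-30c-1 and 2 before miR-30e, all on the edge. Pank2 had 4 before miR-103-2 on the edge, and its relative Pank1 had 1 before and 4 after miR-107. The host 1110001A07Rik had 4 before miR-301, on the edge, and 3 after it.

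The hairpins of the first form were led by Mir3068 in Alkbh1, which GENCODE lists as a snoRNA. It had 29 sequences of 18 to 26 nt, all starting within 2 bases of a mature arm and 10 exactly on it. Rfwd2 and Wdr22 followed with 20 at Mir1843b and 19 at Mir1843a, hairpins that overlap Scarna3a and Scarna3b. At Mir1843b 17 started within 2 bases of an arm and only 1 exactly on it. At Mir1843a these numbers were 18 and 11. All 11 at Mir1291 in 2310037I24Rik started exactly on the arm, and that hairpin lies in Snora34. Notch1 had 4 at Mir6996, of which 3 started on the arm. The T cell adaptor gene Lat had 5 at Mir7058, of which 3 did. Sequences in miRNA hairpins alone had a median of 22.0 nt, and 90.2% were 20 to 24 nt long.

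**Figure D3:**
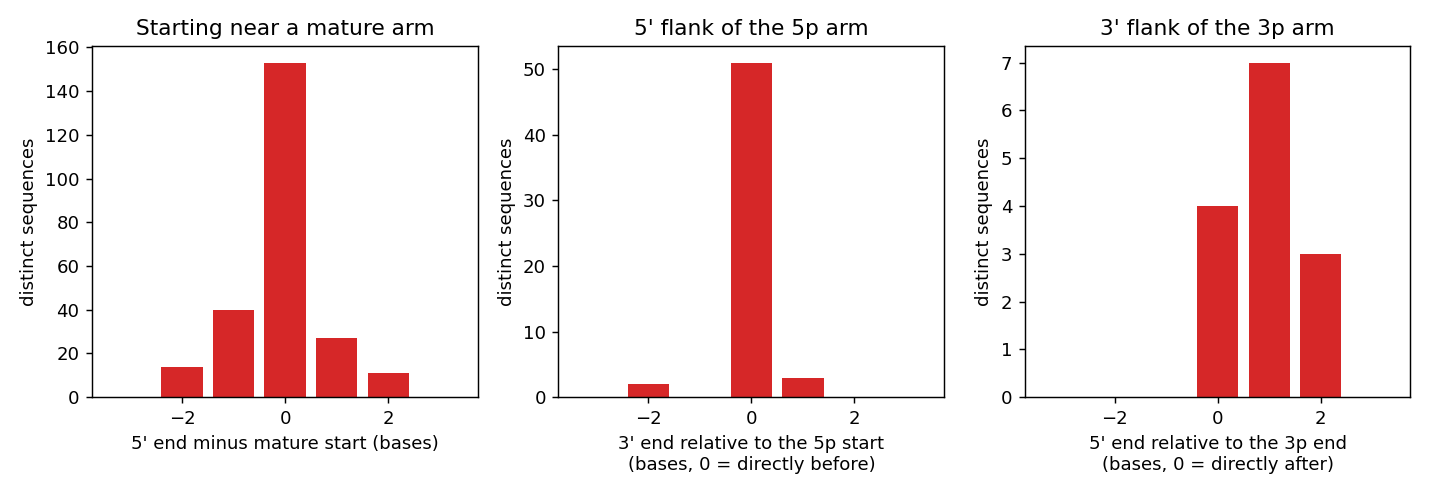
Distinct sequences (y axis) by the offset in bases (x axis) of their 5′ end from a mature miRNA start (left), of their 3′ end from the start of the 5p arm (middle), and of their 5′ end from the end of the 3p arm (right). The bars at 0 hold 153 and 51 sequences in the left and middle panels, and the right panel has its highest bar, 7, at 1 base.

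Lengths of all members ran from 15 to 33 nt with a median of 21 nt and a peak at 18 nt (14.8%), and 27.1% were shorter than the 19 nt at which the gel cut began. Antisense introns had a higher peak at 18 nt (19.6%) and more short sequences (38.8% under 19 nt). The peak at 18 nt was carried by unmatched members (15.5%). In snoRNA matches 8.69% were 18 nt long and 33.7% were 26 nt or longer, against 20.2% of unmatched members.

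**Figure D4:**
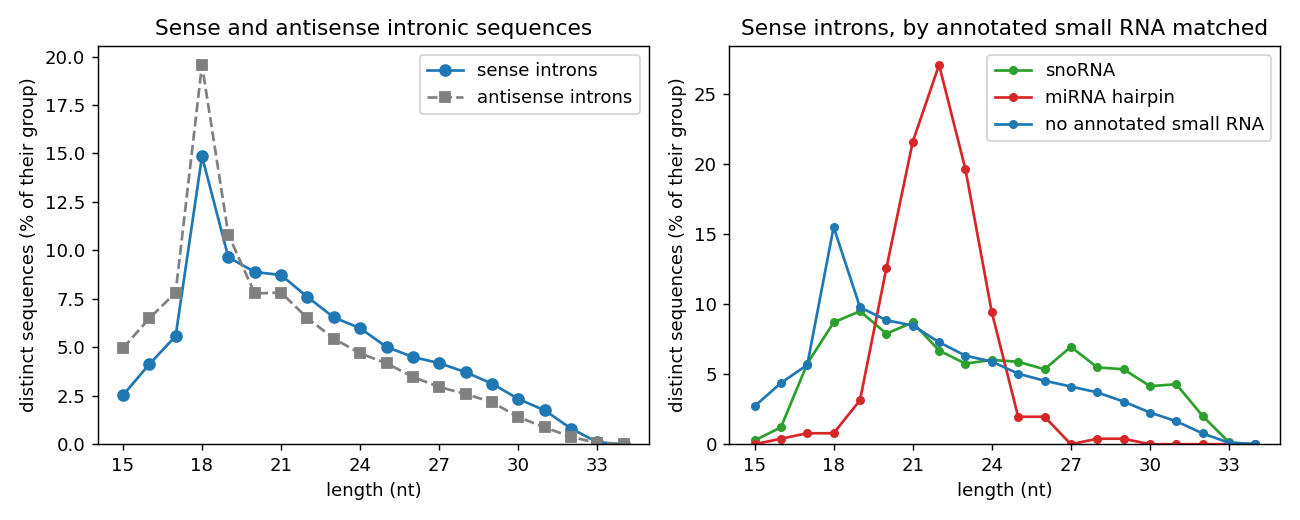
Length in nt (x axis) of distinct sequences as percent of their group (y axis). The left panel sets sense introns (15970) beside antisense introns (7920), both highest at 18 nt. The right panel splits the sense sequences, with miRNA hairpins highest at 22 nt, snoRNA matches spread from 17 to 32 nt and unmatched sequences highest at 18 nt.

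The first base of the members was A in 28.3%, G in 28.1%, T in 24.2% and C in 19.4%. In antisense introns A was 33.3%, G 28.9%, C 21.1% and T 16.6%. A T start was more frequent among matches, with 38.4% in miRNA hairpins and 33.2% in snoRNAs, than among unmatched members (23.4%). GC content was 52.7% in sense and 54.7% in antisense introns, and 43.7% in snoRNA matches. The letters of the 5′ splice site at the start of a sequence, GTAAG or GTGAG, were rare among members. They opened 23 (0.144%) and 49 (0.307%) members and 8 (0.101%) and 29 (0.366%) antisense sequences. Over the list without the left-out genes the shares were 0.28% and 0.48%. Sense sequences that the authors labelled gene, and not intron, had more, 95 (4.06%) and 97 (4.14%) of 2342. The low shares thus describe the intron label and not the library. The letters CAG, which often end an intron, closed 2.30% of members, 2.42% of antisense sequences and 5.9% of those labelled gene and sense. Distances to splice sites were not measured, since no genome of the list's build was used here.

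Position in the gene was taken from the most upstream sense 5′ UTR sequence that the list holds for the same transcript, which 5194 members had. The median distance was 2570 bases for these members and 996 bases for 2222 antisense intronic sequences. Within 1000 bases lay 34.3% of sense and 48.5% of antisense sequences. Unmatched members had 37.8% there, and the 516 that matched a small RNA, from 60 transcripts, had 2.33%. Of all members, 225 (1.41%) in 150 genes overlapped an antisense intronic sequence on the other strand.

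**Figure D5:**
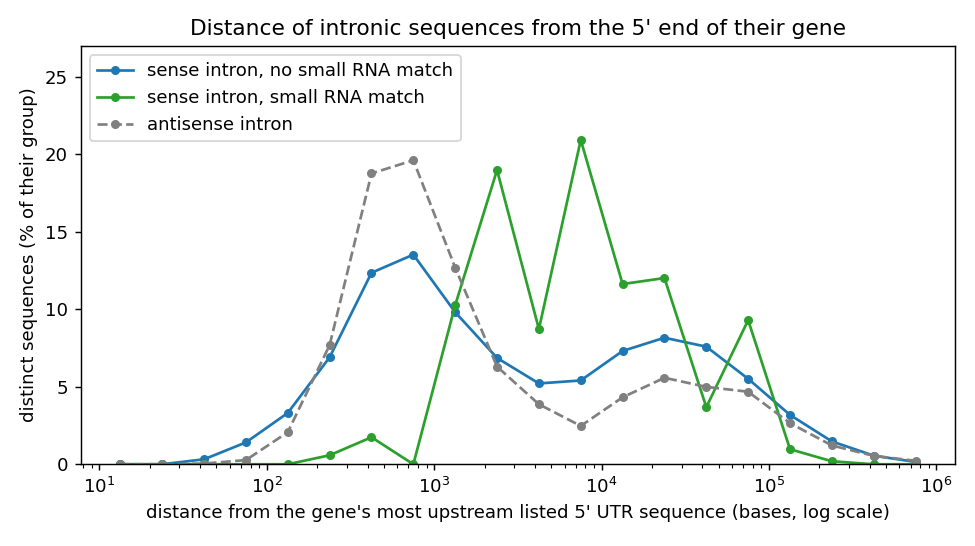
Distance in bases on a log scale (x axis) from the most upstream listed 5′ UTR sequence of the same transcript, as percent of each group (y axis). Unmatched sense (4678) and antisense (2222) sequences each have a peak below 1000 bases and a lower one above 10 kb, and the 516 small RNA matches lie almost wholly beyond 1000 bases.

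Genes of the T lineage were represented mostly by scattered single sequences, as were the members in general, of which 76.25% stood alone. Of 42 listed genes, 34 had members and 18 had at least 5, for 250 sequences in all, of which 4 (1.60%) matched an annotated small RNA. Among all 10761 genes of the list outside the left-out ones, 6437 had members, 528 of them 5 to 9 and 170 of them 10 or more. Notch1, the receptor that commits precursors to the T lineage, had 31 sequences over 39.2 kb, and no cluster of it exceeded 4. Ets1 had 24 in 21 clusters over 51.3 kb, and Tcf7, a transcription factor acting downstream of Notch, had 15 in 14. Among receptor and signalling genes, Il2ra, whose product CD25 marks DN3 cells, had 13, Cd3e and Cd3g 12 each, Notch3 8 and Cd247 7. Among transcription factor genes Ikzf1 had 13, Bcl11b 12, Satb1 12, Runx1 9, Tox 9, Myb 8, Erg 8, Tcf12 7 and Lef1 5. Dntt, the polymerase that adds bases to receptor gene junctions, had 10. Every sequence stood alone at Bcl11b, Runx1, Tox, Myb, Erg, Dntt, Cd247, Tcf12 and Lef1. Antisense intronic sequences numbered 7 at Notch1, 4 at Tcf7 and 25 at Ets1.

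Of 14 marker genes of DN3 cells, 12 had members and Ptcra and Lck had none, though Lck had 58 entries elsewhere in the list. For other cell types, 1 of 6 B cell markers had members (Pax5, 2 sequences) and none of 5 myeloid, 4 erythroid and 4 epithelial markers did. An absence says only that no sequence is listed.

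The preset lists of small RNA hosts had another makeup. The 40 symbols of the snoRNA host list stand for 37 genes by RefSeq synonyms, 1 of which (Nop56) is left out here, and 27 had members, for 402 sequences with 286 (71.1%) in an annotated small RNA. Beside the genes above, those with 5 or more were Hspa8 (28), Rpsa (27), Eef2 (23), Bat1a (22), Tpt1 (20), Tcp1 (18), Ppan (18), Eef1b2 (17), Tnpo2 (16), Ipo7 (15), Snhg3 (12), Chd8 (11), Ep400 (9), Cct6a (5), Cwf19l1 (5) and Snhg7 (5). The 40 symbols of the miRNA host list stand for 39 genes, and 31 had members, for 203 sequences with 46 (22.7%) in an annotated small RNA, 45 of them at Sfmbt2. The others with 5 or more were Arpp21 (26), Smc4 (22), Mcm7 (18), Nfyc (10), Srebf2 (9), Pank2 (6), Hnrnpk (6), Pank1 (5) and Wwp2 (5), and none of their sequences lay inside an annotated small RNA. The gene-linked list shares no sequence with the authors' miRNA list, so sequences placed in that list are not counted here. The 22.7% of miRNA hosts and the 71.1% of snoRNA hosts are therefore not like measures.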

How the data were processed

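Per the labels, adaptors were clipped and the small RNA reads mapped. Neither aligner nor build is given in the sources used here. Files deposited by the authors hold, per library, a list of distinct gene-linked sequences with gene, category, orientation and position (no counts), and a miRNA list whose normalised mapping counts, whole numbers made by the authors, are treated here as a score and not as raw counts. Of these deposited lists the DN3 control ones were used. Overlapping member sequences on 1 strand were joined into clusters. Sequences were matched exactly, on the sense strand, to GENCODE vM21 transcripts and to 1005 RefSeq hairpins (GRCm38.p6) by letters only. The small RNA classes did not include nuclear transfer RNAs. Of 6437 gene symbols, 6377 matched RefSeq symbols or synonyms. Sequences crossing a hairpin or small RNA end needed 10 bases inside it and the RNA's gene within the same host gene, which removed 2 hairpin matches. Clustering and matching were tested on simulated data with planted answers. Named genes were the 15 with most sequences, the genes of the 10 largest clusters, and list genes with at least 5 sequences. Of the first 2 groups, 2 genes are not reported here. Other genes were chosen after their values were seen. The members and lists were chosen with earlier results of these data known. Python 3.11.15 with pandas 2.3.3 was used. Alternatives changed the overlap rule, the lengths, the genes left out, and counted each cluster once.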

Additional observations from a re-analysis of the deposited data

How the results depend on the processing

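Of 26 alternative values, 14 stayed within the interval of the reported share, or within 1.5 times the reported count, and 12 moved. The share of members in clusters of 2 or more, 23.8%, was 25.4% when sequences up to 10 bases apart were joined, 21.8% when 10 shared bases were required, 29.7% with the left-out genes put back and 20.2% for lengths 19 to 24 only, where 514 clusters of 2 or more were left from 7568 sequences. Counting each cluster once left 63 genes at 10 or more instead of 170. It gave 23.2% starting with T, 2.0% matching an annotated small RNA and, chosen after seeing the data, 2.26% of unmatched clusters with TGATG before CTGA. Putting the left-out genes back gave 14.2% of 18 nt, 25.2% starting with T and 13.3% matching a small RNA. Keeping sequences listed at 1 place changed nothing, since each is listed once. Its values are counted among the 14 but could not have moved. No paired analysis was possible because each cell type and genotype has 1 library. Without read numbers, depth and abundance are unknown.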
